A study of Homo sapiens with 6 samples.

Results

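The genes described here are 9 transcriptional targets of the tumour suppressor p53 other than CDKN1A, which encodes p21. They were chosen by symbol (MDM2, BTG2, GADD45A, PLK3, RRM2B, ZMAT3, FAS, TNFRSF10B and TP53INP1) from the 26704 genes of the deposited tables, and all 9 were present in all 3 tables and passed the filter on low values. RNA came from SKM-1, a human cell line grown from acute myeloid leukaemia and known to carry a mutated p53 gene. The groups were VEM (1 library of cells given vemurafenib, a RAF kinase inhibitor), VEM+BOR (1 library given both compounds), BOR (2 libraries given a compound that the labels name only by this abbreviation) and untreated cells (2 libraries). All libraries were of the same line, and the sources used here state neither doses nor times. Whether the 2 libraries of a group were separate cultures is not stated, so p-values measure only library-to-library spread, which may be technical.

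p53 is a transcription factor that accumulates when DNA is damaged or other stress is sensed, and it binds response elements near its target genes. Some targets stop the cell cycle or aid DNA repair, others encode death receptors, and MDM2 closes a negative feedback loop because its product marks p53 for degradation. Several targets also answer to other regulators: TNFRSF10B and GADD45A, for example, are known to be induced through ATF4 or CHOP in the integrated stress response, and BTG2 and PLK3 behave as immediate early genes in many cell types.

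Each value below is a read count per gene divided by 1 factor per library, with all 6 libraries brought to 1 scale, unless another scale is named. Log2 changes are the difference of log2(value + 1), which understates changes of low genes, from a limma fit within the deposited table that holds both groups, or on the 1 scale where no table holds both. A gene passed where its Benjamini-Hochberg adjusted p over all genes tested was under 0.05. In bulk RNA, fewer cells expressing a gene and less RNA per cell cannot be told apart. The libraries held 17252404 to 18507606 reads assigned to genes. Of 10 myeloid marker genes 9 were in all tables, with a summed level of 61838 in VEM, 51827 in VEM+BOR, 129142 and 162172 in BOR and 122265 and 140829 in untreated cells. MPO, ELANE, PRTN3 and AZU1 made up most of that sum. SPI1, of the same list, was 5440.5 in VEM and 6992 in VEM+BOR, against 5375 and 7229 in untreated cells. CEBPA was lower with both, at 1253 in VEM and 1295 in VEM+BOR, against 1875 and 2872 in untreated cells. CD33 was 1268 in VEM and 1517 in VEM+BOR, against 1427 and 1257 in untreated cells. Of 13 markers of other cell types 6 were in all tables, with sums of 218, 178, 221 and 300.1, and 359 and 138 in the same order, and their part in the results below was not tested. BOR 2 stood apart from every other library. Log2 differences from the untreated mean had an SD of 1.46 over 15462 genes in BOR 2 and of 0.385 in BOR 1. BOR values are therefore given by library, and each BOR log2 change pools both.

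**Figure D1:**
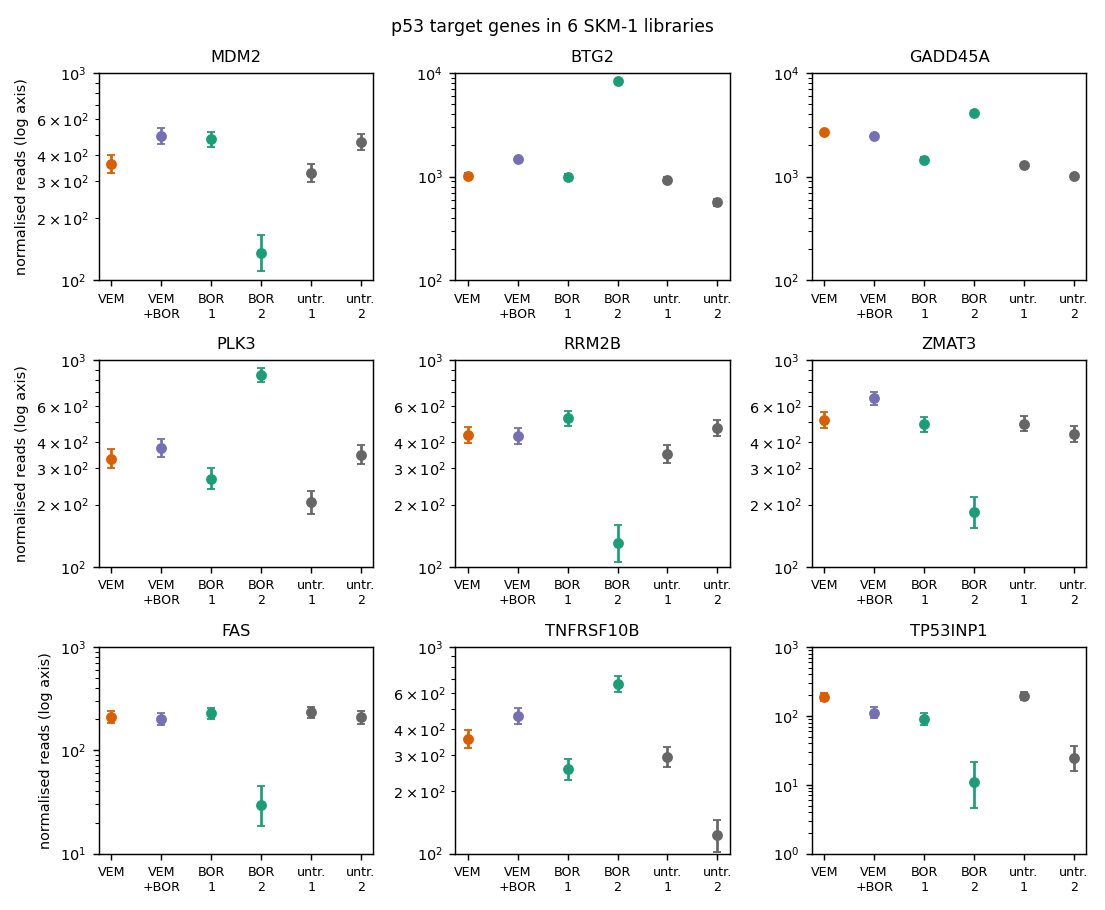
Normalised reads (vertical log axis, 1 scale) of each of the 9 genes in the VEM, VEM+BOR, BOR and untreated (untr.) libraries. Points are single libraries and bars are exact 95% Poisson intervals that cover counting error only. In BOR 2, BTG2, GADD45A, PLK3 and TNFRSF10B stood at their highest and the other 5 genes at their lowest.

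Per kilobase of gene length, untreated cells held most GADD45A, at 556 ± 102 normalised reads per kb (SD, n = 2). BTG2 followed at 271 ± 94.0, PLK3 at 79.5 ± 29.1 and RRM2B at 74.3 ± 15.2. Lower levels per kb were found for FAS (51.8 ± 4.10), ZMAT3 (48.3 ± 3.845), TNFRSF10B (40.5 ± 23.6), MDM2 (29.9 ± 7.26) and TP53INP1 (19.2 ± 21.1). In this order the untreated values of GADD45A and BTG2, of BTG2 and PLK3, and of RRM2B and FAS did not overlap. The untreated values of the other neighbours overlapped. TP53INP1 was the least even between the untreated libraries, with 25 reads in untreated 2 and 218 in untreated 1, a log2 difference of -2.93 for untreated 2 over untreated 1, and only 0.298% of all 15462 genes differed by as much in that direction. TNFRSF10B differed by -1.26 on the same scale and the other 7 genes by between -0.72 and 0.76.

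MDM2 encodes the ubiquitin ligase that holds p53 in check (ENSG00000135679, chromosome 12, 68808176 to 68850686, + strand). Its level was 364 in VEM, 497 in VEM+BOR, 479 in BOR 1 and 135 in BOR 2, while untreated cells held 329 and 466. VEM lay between the untreated libraries, VEM+BOR lay above both, and BOR 2 was the lowest of the 6. The log2 change was -0.11 (SE 0.42) for VEM, 0.33 (SE 0.41) for VEM+BOR and -0.62 (SE 0.71) for BOR. MDM2 did not pass in any of the 3 comparisons (limma, adjusted p of 0.968 or higher).

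GADD45A (ENSG00000116717, chromosome 1, 67685061 to 67688338, + strand) encodes a small protein that binds PCNA and CDK1. It stood at 2692 in VEM, 2462 in VEM+BOR, 1461 in BOR 1 and 4137 in BOR 2, while untreated cells held 1299.6 and 1002. All 4 treated libraries lay above both untreated libraries, as they also did for BTG2. The share of all genes for which this held was not computed. The log2 change was 1.23 (SE 0.37, adjusted p = 0.713) for VEM, 1.09 (SE 0.37, adjusted p = 0.693) for VEM+BOR and 1.11 (SE 0.61, adjusted p = 0.968) for BOR in limma. Of all genes tested with VEM, 98.2% had the same or a smaller log2 change. Set against single libraries on 1 scale, the VEM value was higher by 1.05 over untreated 1 and by 1.42 over untreated 2 in log2.

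BTG2 (ENSG00000159388, chromosome 1, 203305491 to 203309602, + strand) encodes an antiproliferative partner of the CCR4-NOT deadenylase complex. Its level was 1022 in VEM, 1477 in VEM+BOR, 995 in BOR 1 and 8353 in BOR 2, while untreated cells held 931 and 565. BOR 2 held 14.8 times the level of untreated 2, the lowest library, and the other treated libraries lay above both untreated libraries by far less. The exact 95% Poisson intervals of VEM (963 to 1084) and BOR 1 (937 to 1057) overlapped that of untreated 1 (876 to 989). Its log2 change over untreated cells was 0.49 (SE 0.39) for VEM, 1.01 (SE 0.39) for VEM+BOR and 1.99 (SE 0.99) for BOR, with adjusted p-values in limma of 1, 1 and 0.968.

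PLK3 (ENSG00000173846, chromosome 1, 44800225 to 44805990, + strand) encodes a polo-like kinase of the stress response. It was 334 in VEM, 375 in VEM+BOR, 267 in BOR 1 and 845 in BOR 2, while untreated cells held 205 and 348. VEM and BOR 1 lay within the untreated range, VEM+BOR lay just above it, and BOR 2 lay far above it. In log2 its change was 0.31 (SE 0.45) for VEM, 0.48 (SE 0.45) for VEM+BOR and 0.83 (SE 0.70) for BOR.

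RRM2B (ENSG00000048392, chromosome 8, 102204502 to 102239118, - strand) encodes the p53-inducible small subunit of ribonucleotide reductase, which supplies deoxynucleotides for repair. It was 435 in VEM, 430.3 in VEM+BOR, 524 in BOR 1 and 129.8 in BOR 2, while untreated cells held 352 and 472. Both libraries with VEM lay within the untreated range, BOR 1 was the highest library and BOR 2 the lowest. Its log2 changes were 0.09 (SE 0.41) for VEM, 0.06 (SE 0.41) for VEM+BOR and -0.64 (SE 0.75) for BOR.

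ZMAT3 (ENSG00000172667, chromosome 3, 179017223 to 179072279, - strand) encodes an RNA-binding zinc finger protein that takes part in splicing and in the tumour-suppressive output of p53. It was 513 in VEM, 654 in VEM+BOR, 489.7 in BOR 1 and 184 in BOR 2, while untreated cells held 492 and 439. The untreated libraries were close together, both libraries with VEM lay above them and BOR 2 lay below. VEM was higher than untreated 1 by only 0.06 in log2, and their exact 95% Poisson intervals overlapped (472 to 558 and 452 to 534). In limma the log2 change was 0.14 (SE 0.39) for VEM, 0.48 (SE 0.39) for VEM+BOR and -0.63 (SE 0.61) for BOR.

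The 2 death receptor genes did not share a pattern. FAS (ENSG00000026103, chromosome 10, 88990582 to 89015785, + strand) encodes the receptor for FAS ligand. It was 212 in VEM, 202 in VEM+BOR, 229 in BOR 1 and 29.7 in BOR 2, while untreated cells held 233 and 208. The other 5 libraries lay close together, and BOR 2 was far lower. For FAS the log2 change was -0.06 (SE 0.46) for VEM, -0.14 (SE 0.46) for VEM+BOR and -1.39 (SE 0.98) for BOR.

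TNFRSF10B (ENSG00000120889, chromosome 8, 23020133 to 23069179, - strand) encodes DR5, a receptor for the death ligand TRAIL. It was 358 in VEM, 463 in VEM+BOR, 256 in BOR 1 and 662 in BOR 2, while untreated cells held 295 and 123. VEM, VEM+BOR and BOR 2 lay above both untreated libraries, which themselves differed widely. For this gene the log2 change was 0.90 (SE 0.51) for VEM, 1.27 (SE 0.50) for VEM+BOR and 1.11 (SE 0.71) for BOR. For VEM+BOR the difference on 1 scale was 0.65 over untreated 1 and 1.91 over untreated 2. On that scale the VEM value was higher by 0.28 over untreated 1 but by 1.54 over untreated 2, so most of the VEM difference rests on untreated 2.

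TP53INP1 (ENSG00000164938, chromosome 8, 94925972 to 94949411, - strand) encodes a stress protein with roles in autophagy and cell death. It was 187 in VEM, 111 in VEM+BOR, 89.8 in BOR 1 and 10.8 in BOR 2, while untreated cells held 194 and 24.5. The BOR 2 value rests on 8 reads, with an exact 95% Poisson interval of 4.67 to 21.3 that covers counting error only. VEM lay close to untreated 1, and all treated libraries but BOR 2 lay within the untreated range. The log2 change of 1.41 (SE 0.80) for VEM therefore rests on untreated 2: the difference was -0.05 over untreated 1 and 2.88 over untreated 2, and the fitted change was 0.75 with edgeR and 0.76 with DESeq2. For VEM+BOR the log2 change was 0.66 (SE 0.80) and for BOR it was -1.10 (SE 1.32).

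**Figure D2:**
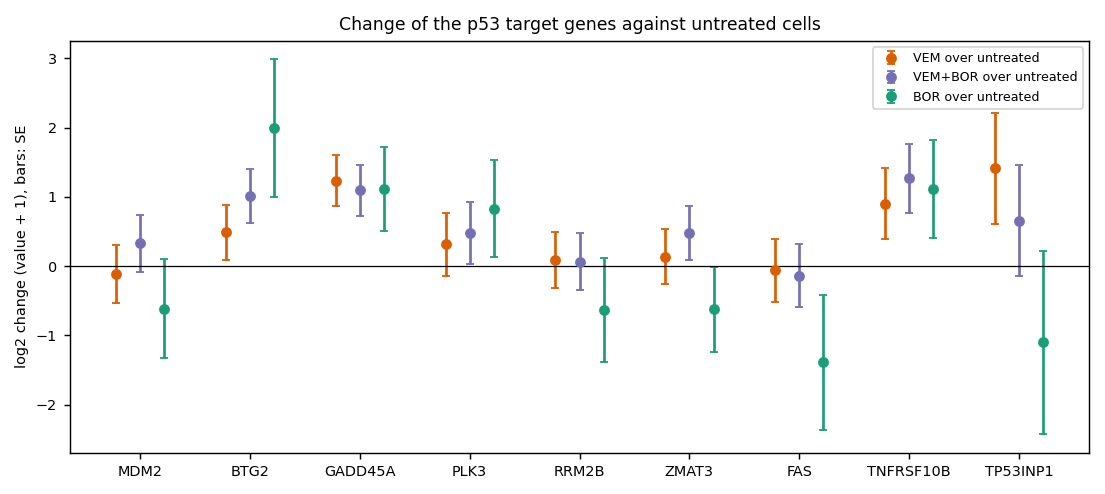
Log2 change of each of the 9 genes in VEM, VEM+BOR and BOR over untreated cells on the log2(value + 1) scale, from limma, with bars for the SE. Each BOR value pools both BOR libraries: the GADD45A change of 1.11 stands between 0.36 in BOR 1 and 1.86 in BOR 2 over the untreated mean on 1 scale. The BOR changes of FAS (-1.39), TP53INP1 (-1.10), RRM2B (-0.64), ZMAT3 (-0.63) and MDM2 (-0.62) lie below 0.

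Across the 9 genes, VEM against untreated cells gave 0 that passed in limma, where 0.0446% of 15689 genes passed, and 0 passed with edgeR or DESeq2, and 1 (GADD45A) had an unadjusted p under 0.05, where 2.54% of genes did. The VEM value lay above both untreated libraries for 4 genes (BTG2, GADD45A, ZMAT3 and TNFRSF10B), where 30.3% of all genes did, and below both for 0, where 27.6% did. For BTG2, ZMAT3 and TNFRSF10B the Poisson intervals of VEM and untreated 1 overlapped. The median log2 change of the 9 was 0.31, against 0.00 over all genes tested. With VEM+BOR, 0 passed in limma, and likewise 0 with edgeR and 0 with DESeq2, where limma passed 0.192% of 15606 genes, and 3 (GADD45A, BTG2 and TNFRSF10B) had an unadjusted p under 0.05, where 3.01% of genes did. VEM+BOR lay above both untreated libraries for 6 genes, where 30.1% of genes did, and below both for FAS, where 27.9% did. The Poisson intervals of VEM+BOR and untreated 2 overlapped for MDM2, PLK3 and FAS. The median log2 change of the 9 was 0.48, against 0.01 over all genes tested. The 2 comparisons share the untreated libraries. Each had 1 residual degree of freedom and took the lone treated library to vary like the untreated pair. The SE and p of a gene therefore rest mostly on the spread of all genes at a similar level.

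With BOR, 0 of the 9 passed in limma, 0 had an unadjusted p under 0.05 and 0 passed with edgeR or DESeq2, where limma passed 0% of 15382 genes and 0.247% had an unadjusted p under 0.05. Both BOR libraries lay above both untreated libraries for BTG2 and GADD45A, where 11.7% of all genes did so, and below both for 0, where 8.24% did. The median log2 change of the 9 with BOR was -0.62, against 0.04 over all genes tested. By library on 1 scale, the median of the 9 over the untreated mean was 0.36 in BOR 1 and -1.33 in BOR 2. Over all genes it was 0.05 and 0.04 in this order. In the authors' deposited table for BOR the lowest adjusted p among the 9 was that of BTG2 (log2 fold change 2.65, adjusted p = 0.301). In the authors' deposited tables GADD45A had a log2 fold change of 1.22 (adjusted p = 0.574) for VEM and of 1.08 (adjusted p = 0.620) for VEM+BOR.

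BOR 1 and BOR 2 gave different pictures of the same 9 genes. BOR 1 over the untreated mean differed by between -0.00 and 0.46 in log2 on 1 scale, and no gene reached a difference of 1 in either direction, where 1.27% of all genes were higher by 1 or more and 1.4% lower. In BOR 2 over the untreated mean, 4 genes were higher by 1 or more, where 16.4% of all genes were, and 5 lower by 1 or more, where 25.5% were. The higher set was BTG2 (3.52), GADD45A (1.86), TNFRSF10B (1.80) and PLK3 (1.66). The lower set was FAS (-2.85), TP53INP1 (-2.58), RRM2B (-1.64), MDM2 (-1.53) and ZMAT3 (-1.33). Without BOR 1, the limma fit of BOR 2 against the untreated pair passed 8 of the 9 (all but TP53INP1), 4 higher and 4 lower, where 26.1% of 15371 genes passed, 9.74% higher and 16.3% lower. Without BOR 2 it passed 0, so every BOR call on these genes was decided by a single library.

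**Figure D3:**
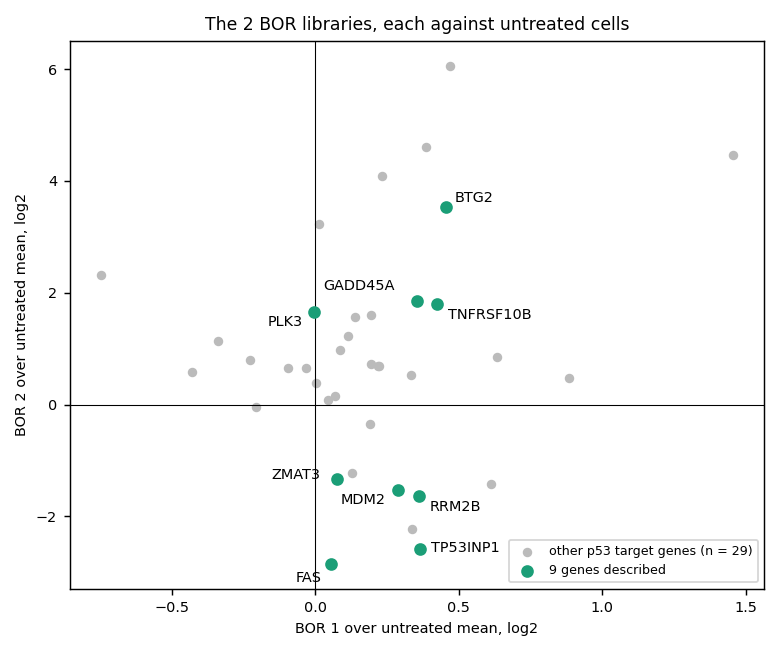
Log2 difference from the untreated mean in BOR 1 (horizontal axis) and in BOR 2 (vertical axis), on 1 scale, for the 9 genes (green) and 29 other p53 target genes (grey). The 9 genes span -0.00 to 0.46 in BOR 1 and -2.85 to 3.52 in BOR 2, where they form a higher set of 4 and a lower set of 5.

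Over all genes the median log2 difference of BOR 2 over BOR 1 differed between classes of gene length. It was 0.24 for 2506 genes under 2 kb, 0.28 for 4164 genes of 2 to 4 kb, -0.00 for 5863 genes of 4 to 8 kb and -0.54 for 2929 genes of 8 kb or more. In the class of 2 to 4 kb, BTG2 differed by 3.07, PLK3 by 1.66 and GADD45A by 1.50, at percentiles 97.9, 92.1 and 90.2 of that class in this order. In the class of 4 to 8 kb, TNFRSF10B differed by 1.37 (percentile 91.7) while RRM2B differed by -2.01 (percentile 14.4), FAS by -2.90 (percentile 5.99) and TP53INP1 by -2.94 (percentile 5.59). In the class of 8 kb or more, MDM2 differed by -1.82 (percentile 25.5) and ZMAT3 by -1.41 (percentile 32.3), closer to the middle of their class. The part of gene length in these differences was not tested.

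**Figure D4:**
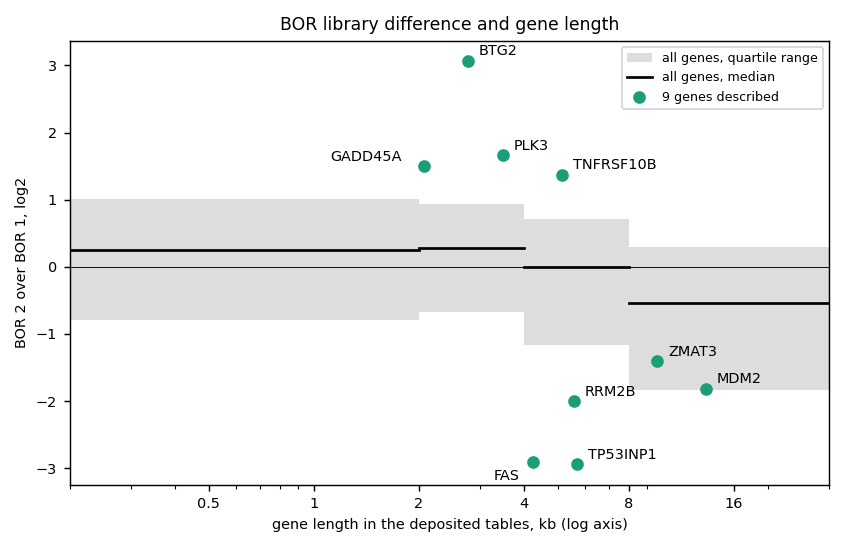
Log2 difference of BOR 2 over BOR 1 (vertical axis, 1 scale) against gene length in kb (horizontal log axis) for the 9 genes, over the median (line) and quartile range (grey) of all genes in 4 length classes. TNFRSF10B at 1.37 and FAS at -2.90 fall outside the quartile range of the same class on opposite sides, while MDM2 and ZMAT3 fall inside theirs.

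Promoter sequences of a pair from each set in BOR 2 are shown to set the higher genes beside the lower ones. They run from 250 bases before to 50 bases after the start in RefSeq on GRCh38.p14, 5′ to 3′. They are BTG2 at chr1:203305269-203305568 (+ strand), PLK3 at chr1:44800127-44800426 (+ strand), MDM2 at chr12:68807922-68808221 (+ strand) and FAS at chr10:88990548-88990847 (+ strand). The RefSeq start is not the gene start given above, which is 44800225 for PLK3 and 88990582 for FAS. Most of the PLK3 window and most of the FAS window thus lie inside the gene as given above. Capitals mark matches to 9 searched motifs on either strand.
BTG2: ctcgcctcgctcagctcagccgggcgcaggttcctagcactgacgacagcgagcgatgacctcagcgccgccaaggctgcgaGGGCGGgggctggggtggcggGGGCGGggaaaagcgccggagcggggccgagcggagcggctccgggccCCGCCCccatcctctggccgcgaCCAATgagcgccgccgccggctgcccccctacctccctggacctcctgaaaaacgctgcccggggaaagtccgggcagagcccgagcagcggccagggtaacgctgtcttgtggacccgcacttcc
PLK3: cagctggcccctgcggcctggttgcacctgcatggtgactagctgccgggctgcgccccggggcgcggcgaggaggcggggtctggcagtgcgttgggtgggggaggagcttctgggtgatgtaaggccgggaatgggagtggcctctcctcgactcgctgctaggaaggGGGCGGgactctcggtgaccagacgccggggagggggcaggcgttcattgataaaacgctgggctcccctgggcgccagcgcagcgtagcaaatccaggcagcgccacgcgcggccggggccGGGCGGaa
MDM2: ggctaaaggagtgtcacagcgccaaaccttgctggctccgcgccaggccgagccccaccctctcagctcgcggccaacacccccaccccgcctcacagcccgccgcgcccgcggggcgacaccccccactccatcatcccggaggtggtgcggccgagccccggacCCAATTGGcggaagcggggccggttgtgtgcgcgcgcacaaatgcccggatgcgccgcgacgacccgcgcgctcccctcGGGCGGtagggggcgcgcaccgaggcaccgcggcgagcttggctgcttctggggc
FAS: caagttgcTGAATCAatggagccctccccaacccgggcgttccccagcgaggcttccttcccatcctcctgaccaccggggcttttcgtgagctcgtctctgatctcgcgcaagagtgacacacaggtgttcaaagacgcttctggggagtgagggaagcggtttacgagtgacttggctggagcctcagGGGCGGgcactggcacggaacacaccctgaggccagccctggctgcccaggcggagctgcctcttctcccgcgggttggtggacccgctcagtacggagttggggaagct
Of the 9 genes, 5 had a window in the table (these 4 and ZMAT3). The p53 decamer motif was found in 0 of the 5, and in 6.54% of 27305 windows of this length. The GC box GGGCGG was found in 5 of 5 and in 44.6% of all windows, and the CCAAT box CCAAT in 3 (BTG2, ZMAT3 and MDM2, where a match on each strand overlaps the other) and in 35.7% of all windows. The pattern TGANTCA, searched for AP-1, takes any base at its centre, where the AP-1 consensus has C or G. It was found in FAS alone, as TGAATCA, which is not that consensus, and in 7.76% of all windows. The C/EBP-ATF motif TGATGNAAT (1.02% of all windows), the CRE TGACGTCA (1.98%), the octamer ATTTGCAT (1.8%), the TATA box TATAAA (12%) and the E2F motif TTTCCCGC (1.66%) were found in 0 of the 5. The windows of the higher genes and of the lower genes were thus both GC rich, at 63% to 74.7% G and C over the 5, against a median of 58.3% for all windows. A match is a description of letters, and p53 response elements are known outside such windows, as in the first intron of MDM2.

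VEM+BOR was also set against each single treatment. Over VEM, 0 of the 9 passed in limma and 0 had an unadjusted p under 0.05, where 0% of 15477 genes passed and 0.607% had an unadjusted p under 0.05. The log2 change of VEM+BOR over VEM was 0.53 (SE 0.45) for BTG2, 0.45 (SE 0.48) for MDM2, 0.37 (SE 0.57) for TNFRSF10B and 0.35 (SE 0.45) for ZMAT3. It was -0.75 (SE 0.87) for TP53INP1, and the other 4 lay between -0.13 and 0.17. Over BOR, 0 passed, where 0% of 15423 genes passed and 0.279% had an unadjusted p under 0.05, and 0 of the 9 did. VEM+BOR lay above both BOR libraries for MDM2, ZMAT3 and TP53INP1, where 22.3% of all genes did, and below both for 0, where 24.3% did. Without BOR 1 this comparison passed 6 of the 9 (where 23.3% of 15401 genes passed), and without BOR 2 it passed 0. The change with VEM did not pass as different with and without BOR for any of the 9 (limma, departures of -1.46 to 1.32 in log2, adjusted p = 1 for each), where 0 of 15462 genes passed and 4 had an unadjusted p under 0.05.

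Among 32 other p53 target genes, 28 were tested with VEM, 0 passed in limma and 3 had an unadjusted p under 0.05, where 2.54% of all genes did. VEM lay above both untreated libraries for 14, where 30.3% of all genes did, and below both for 1, where 27.6% did. Their median log2 change was 0.18, against 0.00 over all genes. With VEM+BOR 29 were tested, 0 passed in limma and 5 had an unadjusted p under 0.05, where 3.01% of all genes did. VEM+BOR lay above both untreated libraries for 14, where 30.1% of all genes did, and below both for 5, where 27.9% did. Their median was 0.26, against 0.01 over all genes. SESN2, a stress-induced inhibitor of mTORC1 signalling that ATF4 also induces, had the highest change with VEM among those with a mean of at least 50, at 1105, against 461 and 334 in untreated cells (log2 change 1.48, SE 0.39, adjusted p = 0.482 in limma, 0.0482 in edgeR, 0.265 in DESeq2 and up to 1 over all alternatives). With VEM+BOR it was 1234 (log2 change 1.64, SE 0.39, adjusted p = 0.125 in limma, with adjusted p = 0.00625 in edgeR, 0.0452 in DESeq2 and up to 1 over all alternatives). CDKN1A was 1243 in VEM and 1204 in VEM+BOR, against 863 and 356 in untreated cells. On the same condition the lowest changes were those of PLK2, a polo-like kinase (log2 change -0.70, SE 0.59), and TRIM22, an interferon-responsive gene (-0.51, SE 0.71), with VEM, and of PIDD1, a death-domain adaptor (-0.42, SE 0.37), with VEM+BOR.

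With BOR 29 of the other targets were tested and 0 passed in limma or had an unadjusted p under 0.05, where 0.247% of all genes did. In DESeq2 SERTAD1 (adjusted p = 0.00207) and SESN2 (adjusted p = 0.0392) passed. Over all alternatives the adjusted p ran from 3.7e-05 for SERTAD1 and 0.000133 for SESN2, both in limma without BOR 1, up to 1 for each. Both BOR libraries lay above both untreated libraries for 7, where 11.7% of all genes did, and below both for 0, where 8.24% did. The median log2 change of the 29 with BOR was 0.46, against 0.04 over all genes tested. Here too the BOR libraries were apart. SERTAD1, a transcriptional coregulator, was 138 in BOR 1 and 6690.4 in BOR 2, while untreated cells held 109 and 90.2. SESN2 was 513 in BOR 1 and 9577 in BOR 2, and CDKN1A was 651 in BOR 1 and 9473 in BOR 2. In BOR 2 over BOR 1, 12 of the 29 were higher by 1 or more in log2, where 17.9% of all genes were, and 3 were lower, where 26.8% were. Of the 9 genes described, 4 were higher and 5 lower by that measure.

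Of 16 regulators of p53, all were tested and 0 passed in each comparison with untreated cells in limma. Of all genes, 0.0446% passed for VEM, 0.192% for VEM+BOR and 0% for BOR. The number with an unadjusted p under 0.05 was 0 for VEM, 1 for VEM+BOR (HIPK2, a kinase that phosphorylates p53) and 0 for BOR. The share of all genes under that limit was 2.54% for VEM, 3.01% for VEM+BOR and 0.247% for BOR. HIPK2 was 2229 in VEM+BOR, against 1458 and 656 in untreated cells (log2 change 1.17, SE 0.42, adjusted p = 0.868). RPL11, a ribosomal protein that binds MDM2, had the lowest change with VEM+BOR (-0.45, SE 0.51). ATM, the damage-sensing kinase, was 1616 in BOR 1 and 140.6 in BOR 2, while untreated cells held 1542 and 772. TP53BP1, a double-strand break adaptor, was 952 in BOR 1 and 178 in BOR 2, while untreated cells held 1012 and 696. The median log2 change of the 16 was -0.09 with VEM, 0.14 with VEM+BOR and 0.14 with BOR. Over all genes tested it was 0.00 with VEM, 0.01 with VEM+BOR and 0.04 with BOR. On 1 scale the median of the 16 was 0.07 for BOR 1 and 0.19 for BOR 2 over the untreated mean, against 0.05 and 0.04 over all genes.

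Reads of overlapping genes could enter some values, since the protocol names no step that marks strand. By GENCODE 29, MDM2 shares 785 exonic bases (5.91% of its exonic length) with the antisense gene AC025423.4, 439 with the pseudogene AC025423.2 on its own strand, neither of which is in all 3 tables, and 133 with CPM on the other strand. FAS shares 380 bases (8.93% of its exonic length) with ACTA2, TNFRSF10B shares 67 with RHOBTB2 and PLK3 shares 78 with TCTEX1D4. RHOBTB2 had 507 to 668 reads in each library, more than TNFRSF10B in all 6 (125 to 505 reads). CPM had 266 reads in VEM and 32 in BOR 2, fewer than MDM2 in all 6 libraries (395 and 100 reads in those). ACTA2 had 8 to 44 reads and TCTEX1D4 0 to 9. In BOR 2 FAS had 22 reads and ACTA2 20. How many reads passed between overlapping genes was not tested.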

How the data were processed

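RNA of 6 SKM-1 libraries was measured by sequencing of poly-A selected RNA, per the labels' protocols. Per the submitters' processing notes the tools included HISAT2 2.0.5 and featureCounts 1.5.0-p3, and also edgeR 3.22.5, DESeq2 1.20.0 and CASAVA, whose roles are not stated. The sources used here name no genome build. The coordinates of the 9 genes in the tables equal those of GENCODE 29 (GRCh38). The authors deposited 3 tables, each with a normalised signal per gene and library, per the file headers. The authors' log2 fold changes and p-values, deposited beside them, enter only in sentences that name the authors' deposited table. Gene lengths are as deposited.

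Division of each column by its smallest step gave whole reads within 0.001 for 100% of the signal values. The treatment labels gave the groups. Library numbers were assigned in accession order and pair nothing. For values across tables, 23519 genes found in all 3 were set on 1 scale with factors from medians of ratios. The test was two-sided, on log2(value + 1), in limma 3.58.1 (R 4.3.3) with a trended prior, for genes with a mean of at least 10. It was run on simulated counts with the same spread for every gene and library, only to check that set log2 changes were recovered. That check does not cover the wider spread between the BOR libraries. VEM+BOR against VEM took its spread from the untreated pair, VEM+BOR against BOR from the BOR and untreated pairs, and the departure fit used all 6 libraries. Alternatives were pseudocounts of 0.5 and 5, no filter, TMM scaling, all 6 libraries in 1 fit, each replicate left out, and count tests of the recovered reads in DESeq2 1.42.0 and in edgeR 4.0.16. The count tests of VEM against untreated were added after the data were seen. No count test was run between tables.

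The 9 genes and the lists were chosen with earlier results of these data known. Besides the 9, genes named from the lists passed, or had the 2 highest or lowest changes against untreated cells among genes with a mean of at least 50. HIPK2, RPL11 and PIDD1 were named by that rule with VEM+BOR. CDKN1A values in BOR lie outside the rule and were chosen after they were seen. The length classes were chosen after the data were seen. The gene that encodes p53 is not reported here.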

Additional observations from a re-analysis of the deposited data

How the results depend on the processing

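No paired analysis was possible because the labels give no replicate numbers shared between groups. None of the 9 genes passed under any alternative except those that left out BOR 1, where 8 passed for BOR against untreated and 6 for VEM+BOR against BOR (range over left-out libraries 0 to 8 and 0 to 6). The count of all genes passing for VEM against untreated was 7, but 0 with no filter, 0 with all 6 libraries in 1 fit, 42 with edgeR and 16 with DESeq2, and 0 to 17 with a library left out. For VEM+BOR against untreated it was 30, but 0 with no filter, 51 with TMM scaling, 0 with all 6 libraries in 1 fit, 87 with edgeR and 64 with DESeq2, and 0 to 50 with a library left out. For BOR against untreated it was 0, but 35 with DESeq2 and 0 to 4008 with a library left out. For VEM+BOR against VEM it was 0, but 1 with a pseudocount of 5, 1 with TMM scaling and 0 to 1 with a library left out, and for VEM+BOR against BOR it was 0 to 3591 with a library left out. Leaving out an untreated library of a comparison with a lone treated library used the fit of all 6.

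Of 441 values of the 9 genes under alternatives, 406 kept direction and side of the threshold, 14 passed that had not, and 21 turned direction, none of them called in either fit. TP53INP1 with VEM+BOR was -0.026 with edgeR and -0.0076 with DESeq2. The ranges that follow, with a library left out, are those of the log2 changes that turned direction. With VEM they ranged from -0.13 to 0.028 for FAS, -0.12 to 0.30 for RRM2B, -0.061 to 0.70 for PLK3, -0.35 to 0.14 for MDM2, -0.048 to 2.88 for TP53INP1, -1.18 to 0.18 for TRIM22 and -1.39 to 0.0090 for PLK2. With VEM+BOR they ranged from -0.13 to 0.29 for RRM2B and -0.80 to 2.13 for TP53INP1. With BOR they ranged from -1.53 to 0.29 for MDM2, -1.33 to 0.079 for ZMAT3, -2.84 to 0.060 for FAS, -1.64 to 0.36 for RRM2B, -2.57 to 0.37 for TP53INP1, -2.94 to 0.57 for ATM and -2.22 to 0.18 for TP53BP1. For VEM+BOR over BOR they ranged from -0.75 to 0.75 for GADD45A, -0.51 to 0.86 for TNFRSF10B, -2.50 to 0.57 for BTG2, -0.18 to 2.72 for FAS, -0.28 to 1.72 for RRM2B and -1.17 to 0.49 for PLK3. Among those that kept direction, the ranges over all alternatives included 0.65 to 1.91 for TNFRSF10B and 0.67 to 1.39 for BTG2 with VEM+BOR, 0.28 to 1.54 for TNFRSF10B and 0.13 to 0.85 for BTG2 with VEM, and 0.00061 to 1.66 for PLK3, 0.36 to 1.86 for GADD45A, 0.43 to 1.80 for TNFRSF10B and 0.46 to 3.53 for BTG2 with BOR. The cause was not tested. Depth limits TP53INP1 most, with 8 reads in BOR 2 and 25 in untreated 2.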

Other observations

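For 3 of the genes, the protein-coding genes nearest in profile over the 6 libraries were found by the root mean square difference of centred log2(value + 1) values among 10488 genes with a mean of at least 100. The profiles share libraries and depth, and the BOR 2 value weighs most in them. Nearest to MDM2 were RIOX2 (0.04), BLOC1S6 (0.06) and TXNDC9 (0.07). RIOX2 was 576 in VEM, 772 in VEM+BOR, 778 in BOR 1 and 219 in BOR 2, while untreated cells held 555 and 775. Among the nearest to BTG2 were the prostaglandin E2 receptor gene PTGER4 (0.12) and MXD1 (0.16), which encodes a partner of MAX. PTGER4 was 477 in VEM, 610.1 in VEM+BOR, 429 in BOR 1 and 3038 in BOR 2, while untreated cells held 352 and 237. Nearest to TNFRSF10B were AMPD3 (0.11), an AMP deaminase gene, PAG1 (0.21) and SNTB1 (0.21). AMPD3 was 619 in VEM, 809 in VEM+BOR, 452 in BOR 1 and 1284 in BOR 2, while untreated cells held 454 and 196.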
